A study of Mus musculus with 9 samples.

Results

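Odor detection by ciliated sensory neurons runs through a cyclic AMP pathway whose parts are encoded by a small set of genes. Of the 55291 genes in the deposited expression table, 10 were examined here. They were chosen by gene symbol for their known role, with earlier results of these data known. They include the G protein subunit Gnal, the cyclase Adcy3, the channel subunits Cnga2, Cnga4 and Cngb1 and the chloride channel Ano2. The others are the phosphodiesterases Pde1c and Pde4a, the calcium exchanger Slc24a4 and the stomatin-family gene Stoml3. The main olfactory epithelium had been dissected from 9 mice, 8 to 12 weeks old, and its poly-A RNA sequenced, in a study asking whether the Ms4a genes act in odor detection. The 3 Ms4a cluster knockout mice carried a CRISPR/Cas9 deletion of the Ms4a gene cluster, the 3 Ms4a6c knockout mice carried a KOMP allele of Ms4a6c made by homologous recombination, and the 3 wild-type mice were described as littermate controls. The labels give C57BL/6 for the wild-type mice and do not say from which knockout line they came, and they give no sex.

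In an olfactory sensory neuron, an odorant receptor activates the G protein that contains the product of Gnal, which activates the cyclase encoded by Adcy3. Cyclic AMP opens a cation channel built from the Cnga2, Cnga4 and Cngb1 proteins, and the entering calcium opens the chloride channel Ano2, which enlarges the current. Phosphodiesterases break down cyclic AMP, and the exchanger encoded by Slc24a4 removes calcium so that the response can end. Several Ms4a genes, Ms4a6c among them, are known from necklace neurons, a sparse population that signals through cyclic GMP. The study reports a further one, Ms4a1, in other sparse neurons that stained for the Cnga2 protein but not for OMP. The genes described here report mainly on the far more numerous conventional ciliated neurons.

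The deposited values were expected counts, which are reads per gene estimated by RSEM, and summed to between 13954591 and 21987174 per mouse. They are given below as CPM, the usual depth-scaled count, with library sizes scaled by the TMM method of edgeR. Ms4a6c had 54.0 to 90.3 expected counts in the wild-type mice, 0 to 2.35 in Ms4a6c knockout mice and 0 in all Ms4a cluster knockout mice, so the targeted gene matched its labels. The tissue label was matched by the mature neuron marker Omp, at 4018 to 5215 CPM in the 9 mice. Wild type replicate 1 and Ms4a cluster knockout replicate 2 stood apart from the others. Transcripts of 8 marker genes of Bowman's and nasal glands made up 19.6% and 19.2% of their libraries, against 0.626% to 4.28% in the other 7. The excess did not extend to all 8 genes. Among wild-type mice, replicate 1 included, Sec14l3 was at 3402 ± 158 CPM and Bpifb4 at 1417 ± 95.3 CPM (SD, n = 3). Bpifb9b was at 51164 ± 84313 CPM in the wild type. The genotype comparisons below are also given without wild type replicate 1 and Ms4a cluster knockout replicate 2, called gland-rich. Xist ranged from 0 to 6756 expected counts and was high in some mice and low in others of every genotype.

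All 10 genes were well measured, with at least 626 expected counts of any of them in any mouse. Together they held 0.890% to 1.005% of the counts of 7 libraries and 0.551% and 0.505% of those of wild type replicate 1 and Ms4a cluster knockout replicate 2. After TMM scaling the highest mouse was 1.24 (Cnga4) to 1.37 (Pde1c) times the lowest mouse for each gene. Ms4a cluster knockout replicate 2 was the lowest of the 9 mice for 9 of the 10 genes, and wild type replicate 1 was the lowest for Stoml3.

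**Figure D1:**
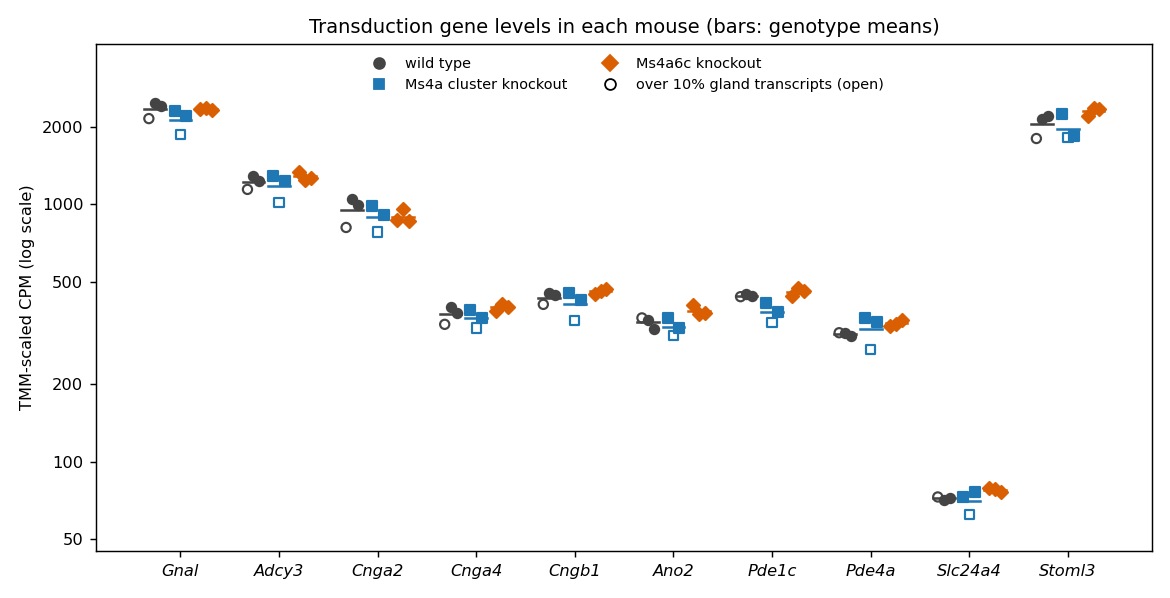
TMM-scaled CPM (log axis) of the 10 genes in each of the 9 mice, with a bar at each genotype mean and open symbols for the mice whose libraries held over 10% gland transcripts. The levels run from 62.4 CPM for Slc24a4 to 2478 CPM for Gnal, and the genotypes lie close together for every gene, with the open square of Ms4a cluster knockout replicate 2 lowest for 9 of the 10.

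Gnal encodes the alpha subunit of the olfactory G protein, G-olf. Its gene lies at chr18:67088216-67226792 on the plus strand (GRCm38). It was at 2154, 2478 and 2414 CPM in the wild-type mice, 2315, 1873 and 2213 CPM in Ms4a cluster knockout mice and 2347, 2360 and 2316 CPM in Ms4a6c knockout mice. The Ms4a6c knockout mice lay close to one another and inside the wild-type range, while the Ms4a cluster knockout mice lay below them and overlapped the wild type. Adcy3, the cyclase of the olfactory cilium, lies at chr12:4133103-4213525 on the plus strand. It was at 1143, 1283 and 1235 CPM in wild-type mice, 1294, 1016 and 1230 CPM in Ms4a cluster knockout mice and 1336, 1248 and 1271 CPM in Ms4a6c knockout mice. The genotypes overlapped for Adcy3, and its highest and lowest mice were both knockouts.

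These 2 genes were the only members whose expected counts were not whole numbers, in 9 of 9 mice each. Gnal shares 852 of its 11172 exonic bases with Mppe1 and Adcy3 shares 1380 of 6246 with Cenpo, both on the opposite strand. The library kit was directional, but whether the counting used strand is not given in the sources used here, so reads from the shared bases may be split between the genes. Mppe1 and Cenpo had at most 370.1 and 368.0 expected counts in any mouse, against at least 18794 for Gnal and 10197 for Adcy3.

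The 3 subunits of the olfactory cyclic nucleotide-gated channel were led by Cnga2, the subunit that can form a channel alone (chrX:71991849-72010218, plus strand). Cnga2 was at 813, 1052 and 992 CPM in wild-type mice, 989, 780 and 906 CPM in Ms4a cluster knockout mice and 868, 962 and 859 CPM in Ms4a6c knockout mice. It had the widest spread of the 10 genes within the wild type, with a coefficient of variation of 13.04%, and its genotypes overlapped. Cnga4 (chr7:105404568-105408742, plus strand) encodes a modulatory subunit. It was at 342, 400 and 380 CPM in wild-type mice, 390, 331 and 360 CPM in Ms4a cluster knockout mice and 387, 411 and 399 CPM in Ms4a6c knockout mice. Cngb1 (chr8:95239045-95306585, minus strand) encodes the beta subunit, of which olfactory neurons use a shorter form than rod photoreceptors do. It was at 409, 451 and 443 CPM in wild-type mice, 454, 354 and 427 CPM in Ms4a cluster knockout mice and 447, 463 and 468 CPM in Ms4a6c knockout mice. For both of these subunits the genotypes overlapped.

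Ano2 encodes the calcium-activated chloride channel of the olfactory cilium (chr6:125690419-126040126, plus strand). It was at 362, 356 and 329 CPM in wild-type mice, 362, 309 and 330 CPM in Ms4a cluster knockout mice and 408, 374 and 378 CPM in Ms4a6c knockout mice. Each Ms4a6c knockout mouse lay above every mouse of the other genotypes. Pde1c, the calcium-stimulated phosphodiesterase of the cilium, lies at chr6:56069804-56569103 on the minus strand. It was at 438, 449 and 439 CPM in wild-type mice, 415, 346 and 383 CPM in Ms4a cluster knockout mice and 440, 474 and 459 CPM in Ms4a6c knockout mice. Every Ms4a cluster knockout mouse lay below every mouse of the other genotypes for this gene. Pde4a, a phosphodiesterase found outside the cilium in the cell body (chr9:21165714-21213248, plus strand), was at 317, 316 and 308 CPM in wild-type mice. It was at 362, 273 and 348 CPM in Ms4a cluster knockout mice, which spanned the wild-type values, and at 336, 342 and 356 CPM in Ms4a6c knockout mice, which lay above them.

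Slc24a4, the potassium-dependent sodium-calcium exchanger of these neurons (chr12:102128733-102267091, plus strand), was the lowest of the 10. It was at 72.9, 71.0 and 72.0 CPM in wild-type mice, 72.9, 62.4 and 76.3 CPM in Ms4a cluster knockout mice and 78.9, 78.1 and 76.5 CPM in Ms4a6c knockout mice, and the last were above all others by a small margin. Stoml3, a stomatin-family membrane protein of the sensory cilium (chr3:53488653-53508502, plus strand), was at 1803, 2148 and 2201 CPM in wild-type mice, 2243, 1825 and 1841 CPM in Ms4a cluster knockout mice and 2212, 2378 and 2350 CPM in Ms4a6c knockout mice. The Ms4a6c knockout mice lay above the wild type for Stoml3 but overlapped the Ms4a cluster knockout.

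To set the genes beside one another, CPM were divided by the length of the longest protein-coding transcript of each gene in kb. On this per-kb scale Stoml3 was highest in wild-type mice, at 1152 ± 122 CPM per kb (SD, n = 3 for this and the following values). Gnal followed at 409.5 ± 29.9, Cnga2 at 311 ± 40.5 and Adcy3 at 246 ± 14.3 CPM per kb. Cnga4 was at 151 ± 12.0, Ano2 at 88.9 ± 4.51, Cngb1 at 70.2 ± 3.67 and Pde4a at 67.4 ± 1.12 CPM per kb. Pde1c at 50.4 ± 0.726 and Slc24a4 at 16.1 ± 0.216 CPM per kb closed the order. Neighbours in this order did not overlap between wild-type mice except Cngb1 and Pde4a.

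The order depended on the length. With the mean length of the protein-coding transcripts, Gnal rose to 998 ± 72.9 CPM per kb and overlapped Stoml3, and Cngb1 rose to 167 ± 8.75, within the range of Cnga4 at 168 ± 13.4. With the coding length alone, Pde1c stood at 192 ± 2.77 CPM per kb, above Pde4a at 124 ± 2.06, and Cngb1 stood at 109 ± 5.71, overlapping Ano2 at 116 ± 5.88. By their means Stoml3 stayed the first, Cnga2 the third, Adcy3 the fourth and Slc24a4 the last under all 3 lengths. With the mean length the wild-type ranges of Cnga2 (265.4 to 343.4) and Adcy3 (244.4 to 274.3 CPM per kb) overlapped. The gene sums in the table do not tell which transcript forms were present.

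**Figure D2:**
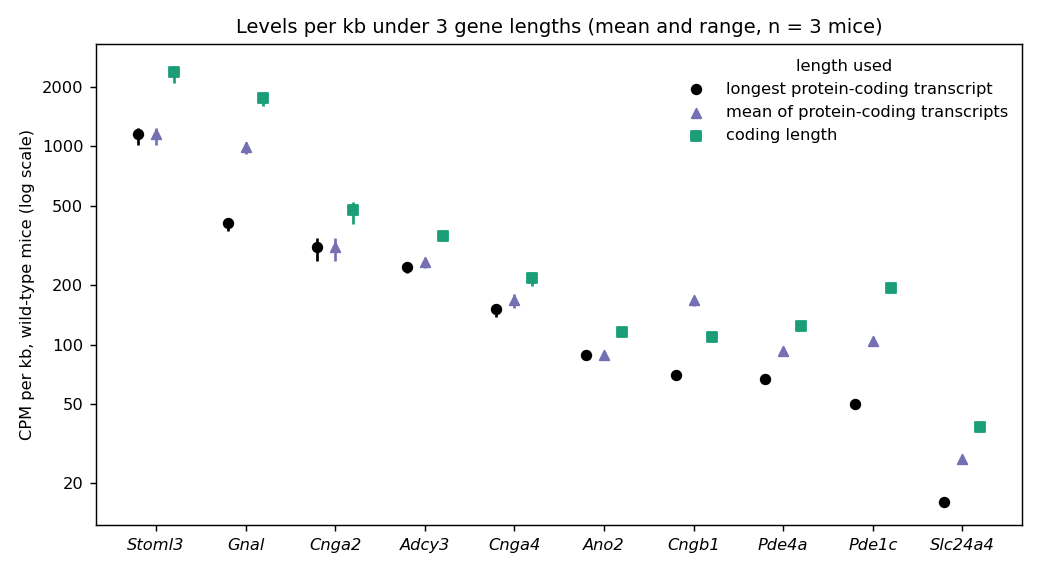
Mean CPM per kb (log axis) in the 3 wild-type mice, with a line over their range, for each gene under 3 transcript lengths. Gnal moves from 409.5 to 1744 CPM per kb with the length chosen, Pde1c from 50.4 to 192, while Ano2 moves only between 88.9 and 116.

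Each gene was then compared with its own family, as its share of the family's summed CPM per kb. Adcy3 made up 95.04% ± 0.874 of the 10 adenylyl cyclase genes in wild-type mice, with Adcy6 next at 5.82 ± 1.67 CPM per kb. Pde1c made up 92.3% ± 0.375 of the 3 Pde1 genes, and Pde4a made up 89.5% ± 0.982 of the 4 Pde4 genes. Among 6 cyclic nucleotide-gated channel genes, Cnga2, Cnga4 and Cngb1 held 58.3% ± 1.55, 28.4% ± 0.825 and 13.2% ± 0.741, and Cngb3, a cone photoreceptor subunit, was next at 0.0996 ± 0.0446 CPM per kb. With the mean transcript length the shares of Cnga2, Cnga4 and Cngb1 were 48.0% ± 1.71, 25.98% ± 0.528 and 25.98% ± 1.21, so that Cngb1 matched Cnga4. Gnal held 60.6% ± 1.66 of 16 G alpha genes, ahead of Gnas at 86.1 ± 3.16, the ubiquitous stimulatory subunit, and Gnai2 at 48.9 ± 2.51 CPM per kb. Ano2 held 67.2% ± 1.43 of 10 anoctamin genes, ahead of Ano10 and Ano6 at 12.8 ± 1.28 and 12.2 ± 0.543 CPM per kb. These shares are of the whole epithelium, in which other cell types also express family members.

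The other families were shared. Stoml3 held 50.8% ± 2.63 of 5 stomatin-family genes, with Stom close behind at 1067 ± 53.0 CPM per kb, inside the wild-type range of Stoml3 (1013 to 1237). With the coding length the order reversed, Stom standing at 3479 ± 173 and Stoml3 at 2373 ± 250.3 CPM per kb, and the Stoml3 share was 39.95% ± 2.50. Slc24a4 was second in its family of 5, at 42.1% ± 0.886, behind Slc24a2 at 19.5 ± 0.991 CPM per kb, and with the coding length its share was 27.6% ± 0.959. With the longest transcript the Slc24a4 share was 48.1% ± 0.771 in Ms4a6c knockout mice and 44.4% ± 0.883 in Ms4a cluster knockout mice. Slc24a2 stood at 169 ± 4.15 CPM in Ms4a6c knockout mice and 205 ± 10.4 CPM in wild-type mice, a log2 fold change of -0.28 (SE 0.09) that did not pass the test of edgeR (adjusted p = 0.292).

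The ratio of 2 genes within a library does not depend on how libraries are scaled. Cnga4 relative to Cnga2, per kb, was 0.518, 0.470 and 0.472 for the wild type, 0.486, 0.523 and 0.490 for the Ms4a cluster knockout and 0.549, 0.527 and 0.573 for the Ms4a6c knockout. All 3 Ms4a6c knockout mice were above the wild type, by a log2 difference of 0.18 (exact permutation test, two-sided, giving p = 0.1, which is the lowest value possible with 3 mice per group, and 0.4 after Benjamini-Hochberg adjustment over the 8 ratio tests). The difference was 0.22 without wild type replicate 1. Cngb1 relative to Cnga2 was 0.249, 0.212 and 0.221 for the wild type, 0.227, 0.225 and 0.233 for the Ms4a cluster knockout and 0.255, 0.238 and 0.270 for the Ms4a6c knockout, with overlap in both comparisons. In the wild type Cnga4 was at 0.487 ± 0.0274 and Cngb1 at 0.228 ± 0.0190 of Cnga2 per kb (SD, n = 3). With the mean transcript length these ratios were 0.542 and 0.543, the length of Cngb1 being 6189 bases for its longest transcript and 2595 bases on average.

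Gnal relative to Adcy3, per kb, was 1.63, 1.67 and 1.69 for the wild type, 1.55, 1.59 and 1.56 for the Ms4a cluster knockout and 1.52, 1.64 and 1.58 for the Ms4a6c knockout. The wild-type mean of 1.66 became 3.82 with the mean and 4.91 with the coding length, while differences between genotypes do not depend on the length. Every Ms4a cluster knockout mouse lay below the wild type, on the log2 scale (-0.09, exact permutation p = 0.1, adjusted 0.4). Without Ms4a cluster knockout replicate 2 and wild type replicate 1 it was -0.11. Ano2 relative to Cnga2 was 0.348, 0.264 and 0.259 for the wild type, 0.286, 0.309 and 0.284 for the Ms4a cluster knockout and 0.367, 0.304 and 0.344 for the Ms4a6c knockout. Wild type replicate 1 stood well above the other wild-type mice for this ratio. The log2 difference of Ms4a6c knockout from wild-type mice was 0.23 (exact permutation p = 0.3) and 0.37 without that mouse, where 3 mice against 2 cannot go below p = 0.1.

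**Figure D3:**
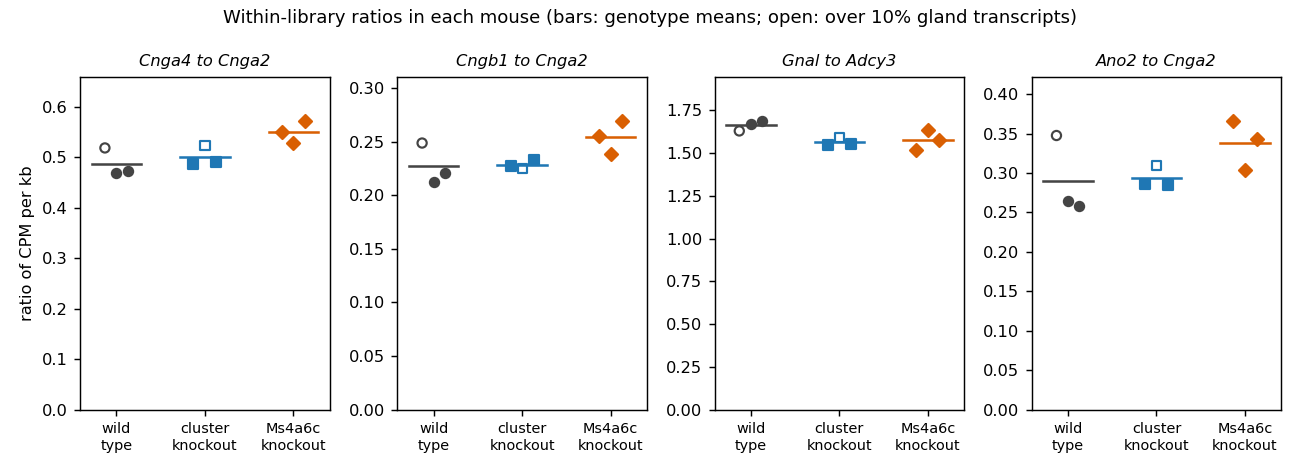
Ratios of CPM per kb within each library for 4 pairs of genes, by mouse and genotype, with bars at the genotype means and open symbols for the mice with over 10% gland transcripts. The Ms4a6c knockout mice lie at 0.527 to 0.573 for Cnga4 relative to Cnga2, above the wild-type mice at 0.470 to 0.518, and the Ms4a cluster knockout mice lie below the wild type for Gnal to Adcy3. The remaining comparisons with the wild type overlap.

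Genotypes were compared by the quasi-likelihood test of edgeR over 23225 genes, fitted to all 9 mice together and adjusted over those genes by the Benjamini-Hochberg method. The comparisons of the knockouts with the wild type share the same 3 wild-type mice. Across the 3 comparisons, the 95% intervals of the members extended 0.16 to 0.28 on either side of the log2 fold change.

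None of the 10 genes changed in Ms4a cluster knockout mice against wild-type mice by edgeR, where 6 genes, 0.0258% of those tested, did, and DESeq2 also called 0 members among 17 changed genes, 0.0741% of those to which it gave an adjusted p. By edgeR 1 member had an unadjusted p under 0.05, where 4.93% of all genes did, and DESeq2 gave 1, where 3.24% did. That gene was Pde1c, at 382 ± 34.4 CPM against 442 ± 6.37 CPM (SD, n = 3 each), with a log2 fold change of -0.21 (SE 0.08, 95% interval -0.38 to -0.04, edgeR adjusted p = 0.968). Pde1c was also the only member whose Ms4a cluster knockout mice all lay below the wild type, as 5.15% of all genes did, and 0 members lay wholly above, as 4.71% did. The estimates were below 0 for 9 of the 10 genes, all but Pde4a at 0.06 (SE 0.10), and their median was -0.06 against 0.01 over all genes. Without both gland-rich mice, Pde1c was at -0.15 (edgeR adjusted p = 0.548), Pde4a at 0.19 (adjusted p = 0.423) and Gnal at -0.11 (adjusted p = 0.53), and no member was called.

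None changed in Ms4a6c knockout mice against wild-type mice by edgeR, where 101 genes or 0.435% did, and DESeq2 also called 0 among 340 changed genes (1.86%). No member had an unadjusted p under 0.05 by either tool, where 10.5% of all genes did by edgeR and 8.59% by DESeq2. The estimates were above 0 for 8 genes and below 0 for Gnal, at 0.00 after rounding, and Cnga2, at -0.09 (SE 0.12), with a median of 0.09 against 0.00 over all genes. Ano2, Pde4a, Slc24a4 and Stoml3 had all 3 Ms4a6c knockout values above the highest wild-type value, as 9.71% of all genes had, and 0 members were lower in all, as 8.55% were. Ano2 was at 387 ± 18.3 CPM against 349 ± 17.7 CPM (log2 fold change 0.15, SE 0.08, adjusted p = 0.534). Stoml3 was at 2313 ± 88.6 CPM against 2050 ± 216 CPM (log2 fold change 0.17, SE 0.12, adjusted p = 0.657). Without both gland-rich mice the Stoml3 estimate was 0.09 (adjusted p = 0.62), that of Ano2 was 0.18 (adjusted p = 0.239) and that of Cnga2 was -0.19 (adjusted p = 0.206).

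Between the knockouts, edgeR called 0 members among 103 changed genes (0.443%), and DESeq2 called 1, Pde1c, among 272 changed genes (1.28% of those to which it gave an adjusted p). By edgeR 2 members had an unadjusted p under 0.05, where 9.38% of all genes did, and DESeq2 gave 3, where 7.63% of all genes did. Pde1c was at 382 ± 34.4 CPM in the Ms4a cluster knockout and 458 ± 17.0 CPM in the Ms4a6c knockout. The log2 fold change was -0.26 (SE 0.08), with an adjusted p of 0.298 by edgeR and 0.021 by DESeq2. Ano2 was the second, at -0.21 (SE 0.08, edgeR adjusted p = 0.426). Gnal, Ano2, Pde1c and Slc24a4 were lower in all 3 Ms4a cluster knockout mice than in every Ms4a6c knockout mouse, where 8.09% of all genes were, and 0 members were higher in all, where 7.86% were. All 10 estimates were below 0, with a median of -0.14 against 0.01 over all genes. Without both gland-rich mice Cnga2 and Pde4a moved to 0.08 and 0.04, and Pde1c was at -0.20 (adjusted p = 0.239).

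**Figure D4:**
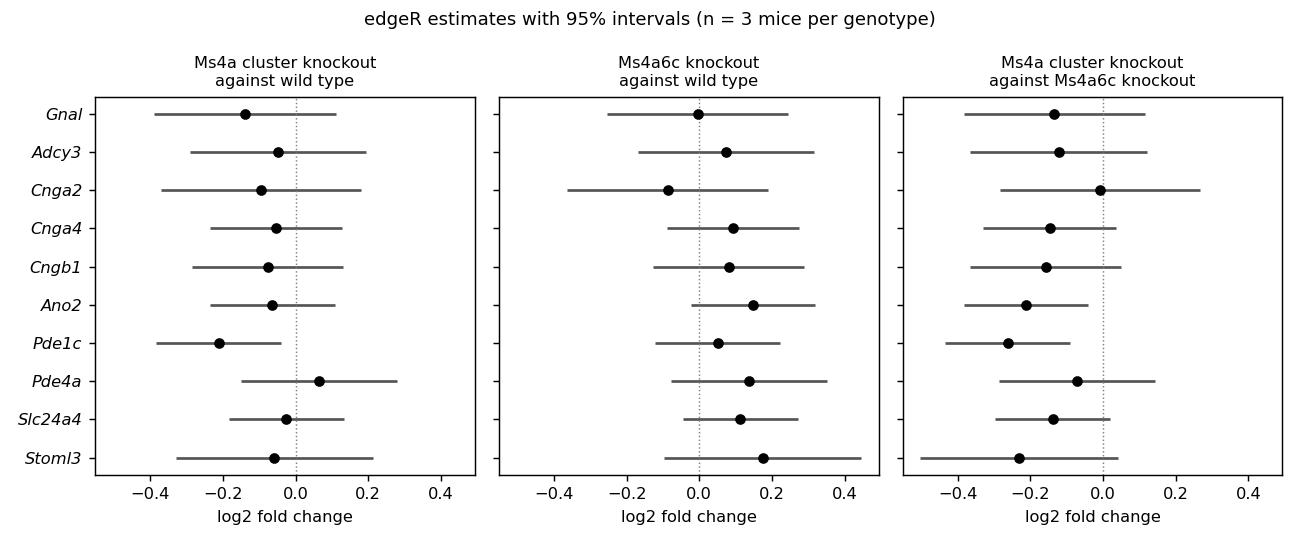
Log2 fold change of each gene with its 95% interval from edgeR in the 3 comparisons, 3 mice per genotype. Only Pde1c against the wild type and Pde1c and Ano2 between the knockouts have intervals that leave out 0, and none of them passed the adjustment over all genes.

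Of the mice with much gland RNA, Ms4a cluster knockout replicate 2 was low in the whole set and wild type replicate 1 in part of it. Relative to the median of the other 7 mice, the 10 genes were lower in Ms4a cluster knockout replicate 2 by between 0.23 (Ano2) and 0.35 (Cngb1) on the log2 CPM scale, with a median of -0.31. In wild type replicate 1 the median was -0.13, with Stoml3 at -0.30 and Pde1c at -0.01. In the other 7 mice the medians of the 10 genes lay between -0.09 and 0.04. Omp moved with them, at -0.32 in Ms4a cluster knockout replicate 2 and -0.16 in wild type replicate 1, while the median over all genes with a mean of at least 100 counts was -0.02 and -0.01 in these mice. The summed CPM of 6 mature neuron markers was 8410 and 9713 in these mice and 9831 to 11000 in the other 7. With gland markers as a covariate, as without these mice, edgeR called 0 members in any comparison. In bulk tissue fewer neurons and less of these transcripts per neuron cannot be told apart.

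**Figure D5:**
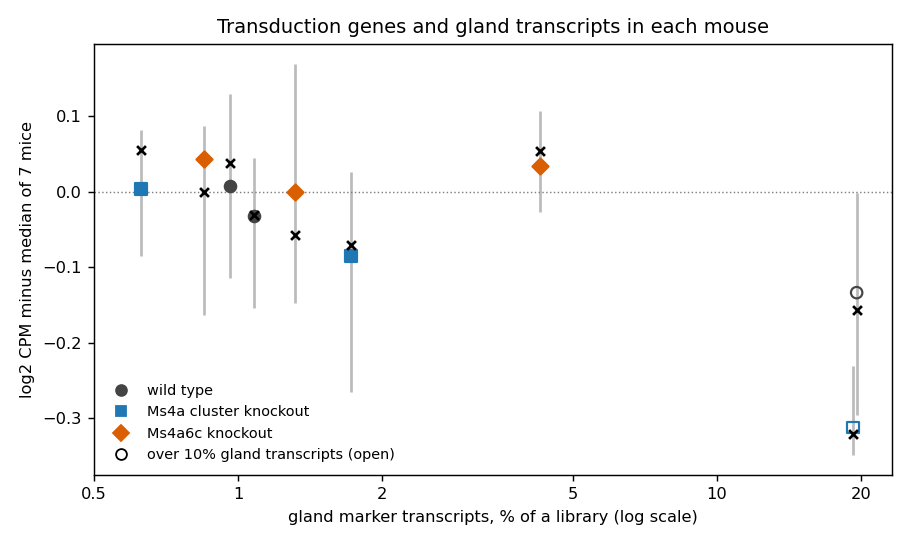
Log2 CPM relative to the median of the 7 gland-poor mice, against the percent of each library taken by 8 gland marker genes (log axis). Symbols are the medians of the 10 genes, grey lines their range and crosses Omp. The mice at 19.2% and 19.6% lie at -0.31 and -0.13, and the other 7 between -0.09 and 0.04.

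The summed markers of sustentacular cells, the supporting cells of the epithelium, ranged from 9554 to 10290 CPM in Ms4a6c knockout mice, above the 7662 to 8578 CPM of wild-type mice. Of the 5 genes, 0 passed the adjusted test of edgeR, where 0.435% of all genes did. DESeq2 called 2, in a direction not given here, where it called 1.86% of the genes to which it gave an adjusted p. At an unadjusted p under 0.05 in edgeR, 2 were higher and 1 was lower, where 10.5% of all genes passed in either direction. The lower gene was Ermn, at 114 ± 6.80 CPM in Ms4a6c knockout mice and 151 ± 19.7 CPM in wild-type mice (log2 fold change -0.41, SE 0.10, edgeR adjusted p = 0.164). Summed mature neuron markers ranged from 10340 to 11000 CPM in Ms4a6c knockout mice and from 9713 to 10160 CPM in wild-type mice. By edgeR or DESeq2 0 of 6 genes were called, and 1 had an unadjusted p under 0.05 in edgeR. That gene was Kirrel2, at 1231 ± 334 CPM in Ms4a6c knockout mice and 904 ± 136 CPM in wild-type mice, with overlap. The median log2 fold change of the 6 was 0.10, and that of Omp was 0.05 (SE 0.13). With Omp as a covariate in the edgeR model, 0 members were called in any comparison.

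To see which genes kept the same proportion to the pathway, each of 12361 other genes with a mean of at least 100 counts and none at 0 was divided by the summed CPM of the 10 members in each mouse. The SD over the 9 mice of the log2 of that ratio had a median of 0.17 over these genes. The smallest belonged to Susd4 (0.03), Pde6d (0.03), Omp (0.04), Fmn2 (0.04) and Pygo1 (0.04), at levels from 21.3 to 27.8 CPM for Susd4 up to those of Omp. Among the members, Cnga4 and Cngb1 followed the sum most closely, with SDs of 0.03 each, and Ano2 and Pde4a least, with 0.10 each. The sum contains the members themselves and is weighted toward Gnal, Stoml3, Adcy3 and Cnga2, and the mice with much gland RNA supply part of its variation.

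The wider pathway was read from 4 lists with 35 genes, which were chosen with earlier results of these data known. None of the 35 changed in Ms4a cluster knockout mice by edgeR or DESeq2, where 0.0258% and 0.0741% of the genes each tool adjusted did. None had an unadjusted p under 0.05 in edgeR, where 4.93% of all genes did, and their median log2 fold change was 0.03. In Ms4a6c knockout mice 2 fell and 0 rose by edgeR, Gng13 and Camk2d, where 0.435% of all genes changed. DESeq2 also called 2, where it called 1.86% of the genes to which it gave an adjusted p. At an unadjusted p under 0.05 in edgeR, 2 were lower and 1 was higher, where 10.5% of all genes passed in either direction. Gng13, the gamma subunit that pairs with the olfactory G protein, was at 179, 198 and 203 CPM in Ms4a6c knockout mice, 347, 371 and 359 CPM in wild-type mice and 421, 332 and 367 CPM in Ms4a cluster knockout mice. Its Ms4a6c knockout values were far below all others, with a log2 fold change of -0.89 against the wild type (SE 0.09, edgeR adjusted p = 0.00121). Camk2d, a calcium- and calmodulin-dependent kinase subunit, was at 173, 181 and 181 CPM in Ms4a6c knockout mice, 266, 292 and 288 CPM in wild-type mice and 274, 223 and 257 CPM in Ms4a cluster knockout mice. Here too the Ms4a6c knockout mice were lowest, with a log2 fold change of -0.66 (SE 0.08, edgeR adjusted p = 0.00378).

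Of the 7 G protein partners and receptor-trafficking genes, Gnb1, the beta subunit, was highest per kb in wild-type mice at 594 ± 36.1, then Gng13 at 499 ± 16.5 and Ric8b, a chaperone of G-olf, at 264.5 ± 13 CPM per kb. Of the 10 genes of calcium feedback and termination, Calm2 and Calm3, which encode the calcium sensor calmodulin, stood at 1128 ± 26.7 and 235 ± 10.1 CPM per kb. Of the 11 ion transport genes, Atp1b1, a beta subunit of the sodium pump, stood at 417 ± 9.07 CPM per kb, and Slc12a2, the cotransporter that loads these neurons with chloride, at 59.7 ± 8.01 CPM per kb. None of the genes named in this paragraph other than Gng13 passed the test in any comparison. The median log2 fold change of the 11 ion transport genes was 0.10 in the Ms4a cluster knockout and 0.09 in the Ms4a6c knockout.

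Among 7 transcription regulators of sensory neurons, Lhx2 (62.7 ± 3.73), Ebf2 (62.7 ± 1.60) and Ebf3 (57.8 ± 3.58 CPM per kb) were highest in wild-type mice. By edgeR or DESeq2, 0 of 7 changed in any comparison. In edgeR 0 had an unadjusted p under 0.05, where 4.93% to 10.5% of all genes did. EBF proteins were first described in this tissue through a palindromic element found in promoters of genes of odor transduction. The letters CCCNNGGG, the core of that element, were searched in the RefSeq promoter windows of the genes, from 250 bases before to 50 bases after the annotated start. The windows cover 9 of the 10 genes with 16 starts (all but Gnal). The letters occurred in 6 of the 16 windows, against 13.7% of all 32851 mouse windows. These windows belong to 6 of the 9 genes, some with several starts, and no share over all genes was computed. Since the letters read the same on the opposite strand, each match counts once. The 4 stretches below, of 100 bases each, are shown because their windows hold a single match and it lies before the annotated start of that window. For Ano2 that is an inner start, and the stretch lies within the gene span given above. They come from RefSeq on GRCm38.p6 in the direction of the gene, with the match in capitals.
Cnga2, chrX:71991737-71991836, plus strand: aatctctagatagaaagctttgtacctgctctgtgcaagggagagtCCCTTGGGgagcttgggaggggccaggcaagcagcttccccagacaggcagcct
Cngb1, chr8:95306661-95306760, minus strand: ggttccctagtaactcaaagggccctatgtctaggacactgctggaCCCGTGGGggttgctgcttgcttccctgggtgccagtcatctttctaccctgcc
Ano2, chr6:125711075-125711174, plus strand: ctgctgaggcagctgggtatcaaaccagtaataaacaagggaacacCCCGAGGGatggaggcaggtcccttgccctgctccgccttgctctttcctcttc
Slc24a4, chr12:102128572-102128671, plus strand: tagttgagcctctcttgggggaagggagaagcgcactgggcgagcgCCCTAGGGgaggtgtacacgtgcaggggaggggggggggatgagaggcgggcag

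The matches begin 66 bases before the start in Cnga2, 129 in Cngb1, 67 in Ano2 at 1 of its listed starts, and 109 in Slc24a4. Pde4a held matches 240 and 156 bases before 1 of its starts, and Cnga4 held a match 24 bases after its start. Other letters were searched on both strands of the same windows. TAATTA, a core bound by LIM-homeodomain proteins such as Lhx2, and the TATA box letters TATAAA were in 0 of the 16 windows, against 5.29% and 13.6% of all windows. The E-box CAGCTG was in 5 windows (16.3% of all), the GC box GGGCGG in 4 (35.7% of all), and the octamer ATTTGCAT in 1, of Pde1c (1.74% of all). No matches of different letters overlapped one another. A match is a description of the sequence, and its use by any factor was not measured.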

How the data were processed

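The olfactory epithelia of 9 mice were sequenced, 3 per genotype, and were grouped by the sample titles. Libraries were directional and poly-A selected. The authors aligned paired-end reads with STAR 2.6.1, quantified them with RSEM 1.3.1 on GENCODE M25 (mm10) in the DolphinNext pipeline, and deposited expected counts per gene without normalization. The authors' own comparison used DESeq2 1.30.1.

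Expected counts were rounded, genes with at least 10 counts over the 9 mice were kept (23225 genes) and scaled by TMM, and edgeR 4.0.16 in R 4.3.3 gave quasi-likelihood tests with genotype as the only term and Benjamini-Hochberg adjustment at 0.05. The SE of a fold change came from its size and the F of its test. The depth of a library, 13954591 to 21987174 counts, sets 3 counts at 0.136 to 0.215 CPM before TMM scaling. Reads carry no molecular identifiers. Ratios used expected counts as deposited and a two-sided exact permutation test. DESeq2 1.42.0 was an alternative. Figures and permutations used Python 3.11.15 and matplotlib 3.10.9. Lengths and coordinates were those of GENCODE M21 (also GRCm38), to which 99.6% of the genes were matched by transcript. The edgeR procedure was tested on simulated data.

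The members and the gene lists were chosen with earlier results of these data known. The genes named were the 10 members, list genes with an adjusted p under 0.05 in any comparison, genes among the 3 highest per kb of a pathway or family list, and the 5 genes that followed the summed members most closely. Cngb3, Cnga3, Ermn, Kirrel2, Sec14l3, Bpifb4, Bpifb9b, Mppe1 and Cenpo fall outside the rule and were named after their values were seen. Some list genes are not reported here. Alternatives were DESeq2's size factors, other filters, fits of only the genotypes compared, a replicate block, an adjusted p under 0.01, covariates (gland markers, Xist, Omp), leaving out each mouse, rounded counts and other lengths. Leaving out both gland-rich mice was chosen after seeing the data. The p-values of edgeR and DESeq2 set a difference between genotypes against the spread between these mice. The permutation p sets it against relabelings of the mice.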

Additional observations from a re-analysis of the deposited data

Results flagged for a closer look

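The effects of the knockouts differed from each other for 2 of the 35 pathway genes by the edgeR test between the knockouts, where 0.443% of all genes differed. The pathway lists were chosen with earlier results of these data known, so the 2 shares are no test of the pathway. Gng13 was 0.95 higher on the log2 scale in Ms4a cluster knockout than in Ms4a6c knockout mice (SE 0.09, edgeR adjusted p = 0.00073), in 3 of 3 mice against every mouse of the other genotype. Camk2d was 0.50 higher (SE 0.08, edgeR adjusted p = 0.0262), also in 3 of 3 mice. Its adjusted p was above 0.05 in 8 of 17 alternatives, among them 5 that left out 1 mouse: 0.0936, 0.106 and 0.126 without Ms4a6c knockout replicates 1, 2 and 3, and 0.0988 and 0.0966 without Ms4a cluster knockout replicates 1 and 3. The cause was not tested.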

How the results depend on the processing

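Of 51 recounts of called members, 50 gave 0, and DESeq2 between the knockouts gave 1. All 8 ratio differences missed the threshold, which this design could not reach. Of 510 recomputed member fold changes 489 kept direction and call, 1 gained a call (Pde1c by DESeq2) and 20 reversed, all without a call. With both gland-rich mice left out, Adcy3, Ano2 and Slc24a4 in the Ms4a cluster knockout against the wild type came to 0.0028, 0.016 and 0.062, and Cnga2 and Pde4a between the knockouts to 0.078 and 0.041. Between the knockouts Cnga2 was 0.047 with gland markers and 0.11 with Omp as covariate, and Pde4a was 0.0097 with Omp. Gnal in the Ms4a6c knockout against the wild type was 0.0080 with Xist as covariate.

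Leaving out each mouse gave these ranges of log2 fold change for the Ms4a cluster knockout against the wild type: Adcy3 -0.12 to 0.048, Cnga4 -0.11 to 0.0029, Cngb1 -0.15 to 0.019, Pde4a -0.014 to 0.18, Slc24a4 -0.087 to 0.052 and Gng13 -0.039 to 0.13. For Gnal in the Ms4a6c knockout the range was -0.063 to 0.035, and between the knockouts Cnga2 ran from -0.088 to 0.080 and Pde4a from -0.15 to 0.043. The ratio differences of the Ms4a cluster knockout ran from -0.039 to 0.075 for Cngb1 to Cnga2 and from -0.049 to 0.16 for Ano2 to Cnga2. The cause was not tested. Per-kb ratios in wild-type mice moved with length: Cnga4 to Cnga2 was 0.542 with the mean and 0.456 with the coding length, Cngb1 to Cnga2 was 0.543 with the mean length, and Gnal to Adcy3 was 3.82 and 4.91.

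Same-numbered mice did not deviate together: the correlation of their deviations over 17691 genes was -0.475 to -0.205 for the Ms4a cluster knockout with the wild type, -0.0627 to 0.0126 for the Ms4a6c knockout with the wild type and -0.119 to 0.077 between the knockouts. With the replicate block 0 members were called in any comparison, and the number of all genes called was 2, 71 and 75. The ratio differences kept their values under the replicate block, with exact sign-flip p from 0.25, the smallest for 3 pairs, to 1. With 3 mice per genotype, the log2 fold change of Pde1c between the knockouts (-0.26) did not pass the adjustment over all genes by edgeR (adjusted p = 0.298). It passed by DESeq2 (adjusted p = 0.021).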
